A study of Homo sapiens with 16 samples.

Results

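The passage of a cell through G1 is driven by a small set of cyclins, the kinases they switch on and the factors that lift the brake on them, and the transcripts of this set were followed in SH-SY5Y neuroblastoma cells with and without doxorubicin. Members were taken by gene symbol, with no threshold on a measured value. It comprised the D-type cyclins CCND1, CCND2 and CCND3, their partner kinases CDK4 and CDK6, the E-type cyclins CCNE1 and CCNE2, their partner kinase CDK2, and the pair SKP2 and CKS1B. Of these 10 genes, 9 had an Ensembl identifier in the deposited tables, which list 26410 genes, and CCND2 was not analysed here.

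SH-SY5Y is an established human neuroblastoma line. The clones KO11 and KO28 had received a CRISPR guide against TRPM2, a calcium-permeable ion channel, and the clones Scr13 and Scr16 a scrambled guide in the same vector. Cells of all 4 clones had also received a donor vector with GFP and puromycin markers, had been selected in puromycin and were grown from single cells. Each clone was sequenced in 2 replicates after 24 h in regular medium and in 2 replicates after 24 h with doxorubicin, a chemotherapy drug that damages DNA, which gave 16 libraries and 4 per group. The sample labels give the dose as 0.3 µM and the text of the whole series gives 3 µM. Genotype was therefore compared as 2 clones against 2 clones, and an effect of the guide cannot be told apart from a difference between the clones. The p-values measure the spread between libraries, and 2 libraries of a clone share that clone. Between 10481177 and 25086085 reads fell on genes per library. The values are normalized CPM, reads scaled to an effective library size, and 3 reads corresponded to between 0.118 and 0.285 normalized CPM. Such floors cover counting error only.

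TRPM2 itself went against the genotype label. In untreated cells it stood at 1.93 and 2.23 normalized CPM in KO11, at 1.41 and 2.19 in KO28, at 0.118 and 0.115 in Scr13, and at 0 in both libraries of Scr16. After doxorubicin it stood at 1.22 and 1.83 in KO11, at 1.37 and 0.658 in KO28, at 0.0594 and 0.0631 in Scr13, and at 1.33 and 0.390 in Scr16. The libraries labelled TRPM2 KO thus had a higher level than every scrambled library without treatment, while treated Scr16-1 lay among them, and at most 37 reads stood behind a value. A gene-level count does not show whether a transcript still encodes the channel, so the groups are called here by their labels. As a description of the cells, 12 markers of the noradrenergic lineage summed to between 6610 and 7986 normalized CPM in each library. No other cell type was at hand for comparison, so the neuroblastoma label was not tested. DBH or HAND2 was the most abundant of these markers everywhere, while TH, the enzyme at the start of catecholamine synthesis, had a mean of at most 0.523 normalized CPM in any group. CHGA was also low, with means of 1.90 untreated and 1.21 treated in the scrambled libraries. Under the TRPM2 KO label its means were 7.92 ± 12.4 and 0.898 normalized CPM (SD, n = 4 libraries).

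D-type cyclins are made in response to growth signals and activate CDK4 and CDK6, which phosphorylate the retinoblastoma protein and so release E2F transcription factors. E2F raises the E-type cyclins, which activate CDK2 and carry the cell into S phase. SKP2 is the substrate receptor of a ubiquitin ligase that, with the small protein CKS1B, marks the CDK inhibitor p27 for degradation, and DNA damage stops this sequence mainly through p53 and the CDK inhibitor p21. Neuroblastoma is known for high CCND1.

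After doxorubicin the E cyclin CCNE2 and SKP2 fell in the scrambled clones, and SKP2, CDK4 and CDK2 fell in the clones labelled TRPM2 KO. None of the 9 genes rose with the drug in either genotype. Between genotypes CDK6 was higher where the label read TRPM2 KO, in untreated cells. CCND1, the most abundant of the set, passed the test in none of the comparisons. In bulk RNA, fewer cells in a given phase and less RNA per cell cannot be told apart.

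These statements rest on limma with Benjamini-Hochberg adjustment over all genes tested, at an adjusted p under 0.05 on the log2(normalized CPM + 1) scale, which understates the change of low genes. All 9 genes passed the filter on low values in every comparison. In the scrambled clones 2 of 9 were called after doxorubicin, both lower, where 11.5% of 15325 genes were called and 4.99% were called lower. In the clones labelled TRPM2 KO 3 of 9 were called, all lower, where 16.7% of genes were called and 7.11% were called lower. Between genotypes 1 of 9 was called without treatment, where 4.84% of 14364 genes were called and 2.30% were called higher. After doxorubicin 0 of 9 were called between genotypes, where 8.69% of 14572 genes were called. With 9 genes these counts are a description of the set. The median log2 fold change of the 9 genes after doxorubicin was -0.14 in the scrambled clones and -0.26 in the clones labelled TRPM2 KO, beside medians of -0.01 and 0.02 over all genes tested. Both drug comparisons came from 1 fit over the 16 libraries.

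**Figure D1:**
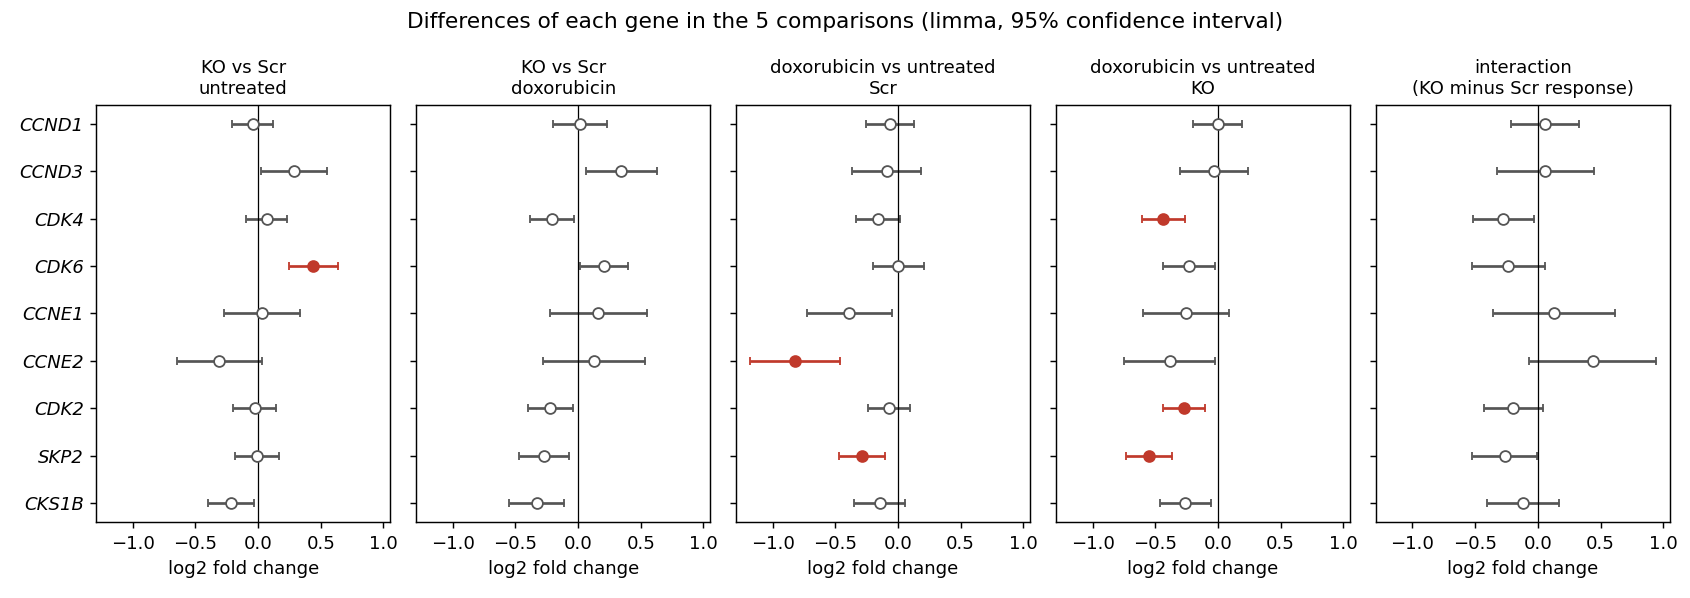
Log2 fold change of each of the 9 genes in the 4 comparisons and the interaction, on the log2(normalized CPM + 1) scale (x axis), with the 95% confidence interval of limma as bars. Filled red points passed an adjusted p of 0.05, and they are CDK6 between untreated genotypes, CCNE2 and SKP2 in Scr and CDK4, CDK2 and SKP2 in KO.

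Set per kilobase of annotated exon, the 9 genes spanned a wide range of levels. CCND1 led with 473 ± 42.4 normalized CPM per kb (SD, n = 16 libraries), above 99.8% of the genes tested. CDK4 followed with 51.7 ± 7.32, CKS1B with 34.4 ± 5.30 and CDK6 with 33.4 ± 5.93. SKP2 had 19.5 ± 3.47 and CDK2 had 18.4 ± 1.81 normalized CPM per kb. The 3 lowest were CCNE1 at 6.004 ± 1.13, CCND3 at 5.08 ± 0.840 and CCNE2 at 2.77 ± 0.813, and CCNE2 lay above 34.1% of the genes tested. CCND1 was separate from all others in every library. Neighbours further down overlapped in their ranges, namely CDK4 with CKS1B, CKS1B with CDK6, SKP2 with CDK2, CCNE1 with CCND3 and CCND3 with CCNE2. CDK6 with SKP2 and CDK2 with CCNE1 did not. The exon length is that of all annotated exons together, 12260 bases for CDK6, so the level per kb of a gene with long exons that these cells may not use is an underestimate.

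**Figure D2:**
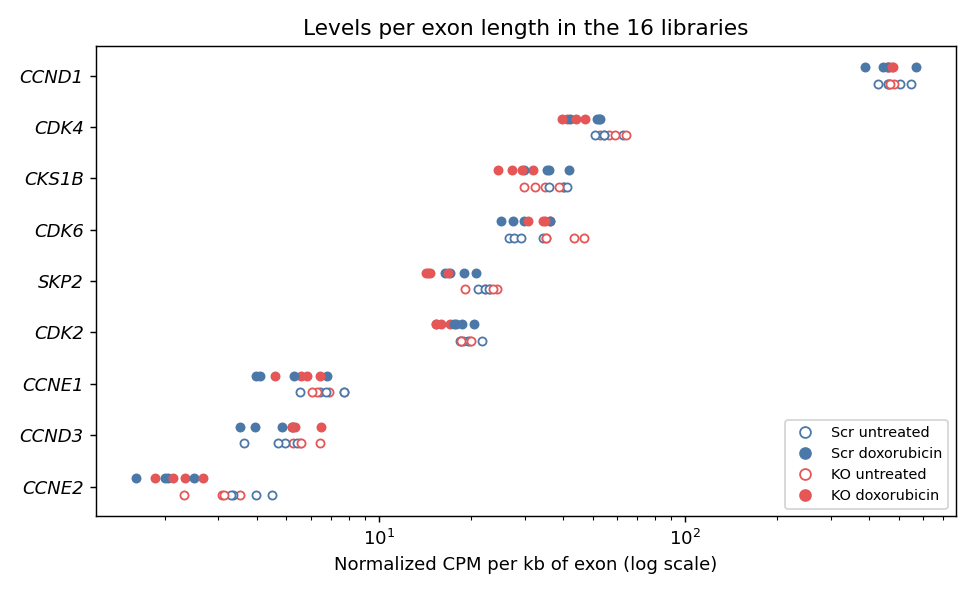
Level of each gene per kb of annotated exon in each of the 16 libraries (log axis, normalized CPM per kb), with untreated libraries as open and doxorubicin libraries as filled points, Scr in blue and KO in red. CCND1 lies between 389 and 572, and the other 8 genes lie below 64.5.

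CCND1 (chr11:69641087-69654474, plus strand, GRCh38) encodes cyclin D1. In the scrambled libraries it ranged from 2071 to 2647 normalized CPM without treatment and from 1878 to 2761 after doxorubicin. Under the TRPM2 KO label it ranged from 2223 to 2336 and from 2214 to 2316. The scrambled libraries were thus more spread, with an SD of 249 untreated and 369 after the drug against 47.9 and 51.1, and the groups overlapped in all 4 comparisons. The log2 fold change with doxorubicin was -0.06 (95% confidence interval -0.25 to 0.13) in the scrambled clones and -0.0028 (-0.19 to 0.19) in the others. The difference between genotypes was -0.04 (-0.20 to 0.12) without treatment and 0.02 (-0.20 to 0.23) after doxorubicin. The sign of these small values changed with the setting, so no direction is given for CCND1.

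CCND3 (chr6:41934933-42050357, minus strand) encodes cyclin D3 and was far lower than CCND1. CCND1 made up between 98.6% and 99.3% of the sum of both genes per kb in every library. In the scrambled libraries CCND3 ranged from 21.1 to 31.4 normalized CPM untreated and from 20.4 to 30.2 after doxorubicin. Under the TRPM2 KO label it ranged from 30.4 to 37.3 and from 30.3 to 37.7, so that after doxorubicin the genotypes did not overlap. By limma the difference between genotypes after doxorubicin was 0.35 on the log2 scale (SE 0.14) with an adjusted p of 0.139, and without treatment it was 0.29 (SE 0.13) with an adjusted p of 0.289. Without the doxorubicin library Scr16-1 the former reached 0.43 with an adjusted p of 0.0433. With the drug the log2 fold change was -0.09 in the scrambled and -0.03 in the other clones.

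**Figure D3:**
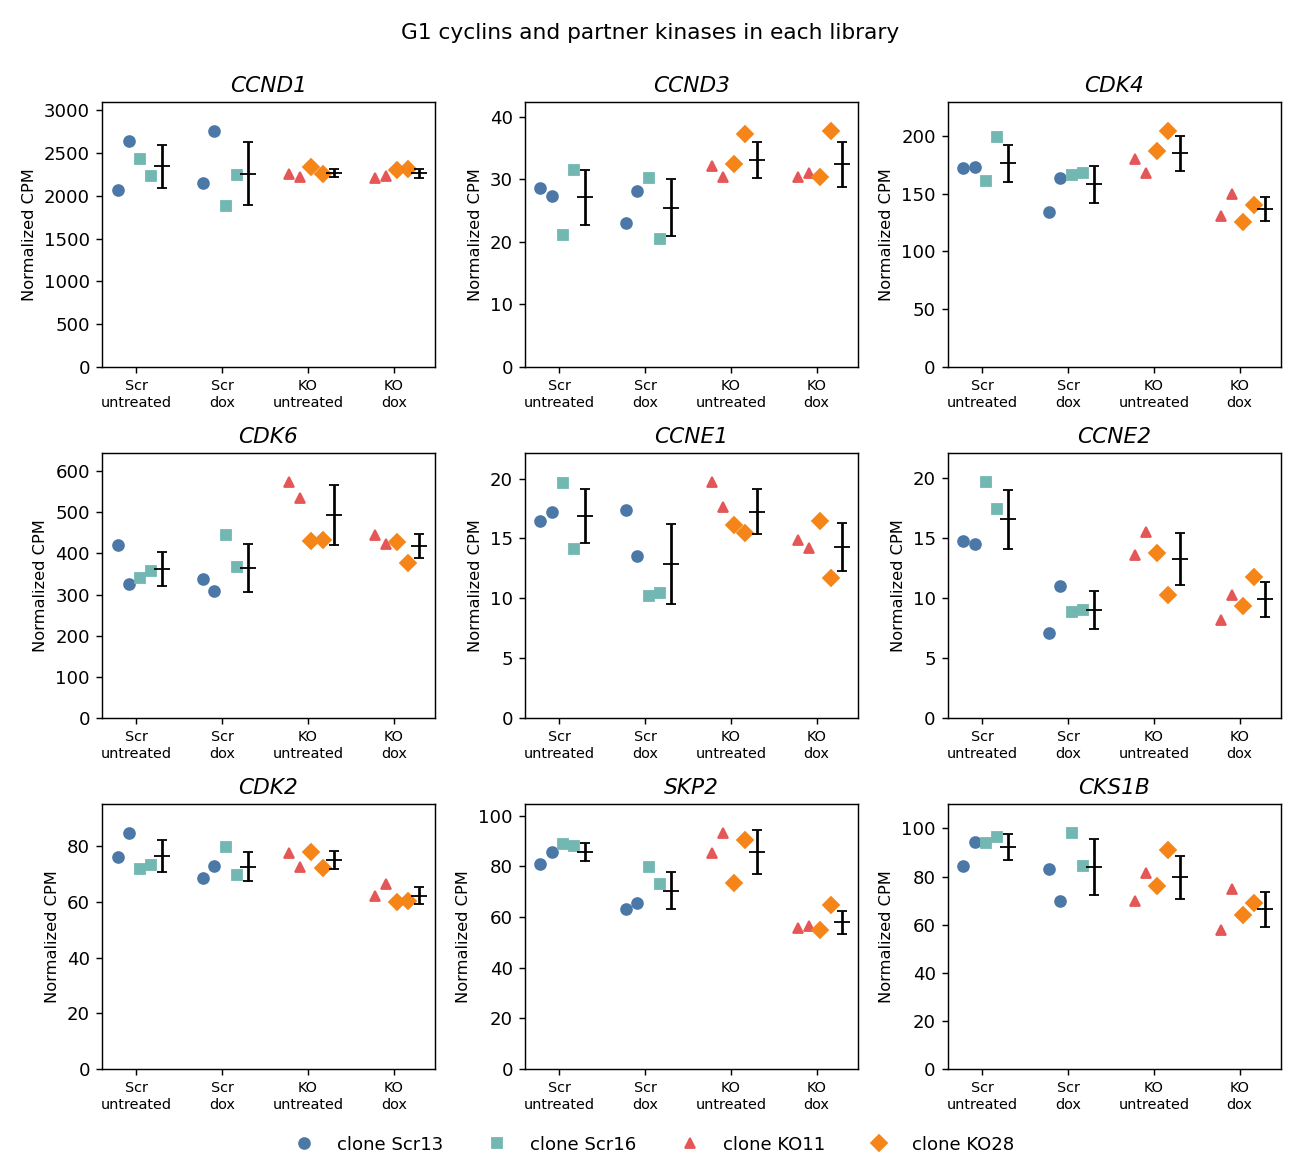
Normalized CPM of the 9 genes in each of the 16 libraries, by group (x axis), with a marker and colour for each clone and the mean ± SD of the 4 libraries at the right of each group. Every axis starts at 0. The values of CCND1 are more spread in the Scr than in the KO libraries, SKP2 is lower after doxorubicin in both genotypes, and CDK6 is highest in untreated KO11.

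CDK4 (chr12:57747727-57756013, minus strand) encodes a kinase that D cyclins activate. Its start is of interest because it carries the palindrome CACGTG, an E-box that MYC and related factors can bind, 3 times in the 250 bases before the RefSeq start. The stretch is chr12:57752311-57752560 of GRCh38.p14, minus strand, shown 5′ to 3′ with the 3 matches in capitals, the first of which begins 216 bases before the start.
CDK4: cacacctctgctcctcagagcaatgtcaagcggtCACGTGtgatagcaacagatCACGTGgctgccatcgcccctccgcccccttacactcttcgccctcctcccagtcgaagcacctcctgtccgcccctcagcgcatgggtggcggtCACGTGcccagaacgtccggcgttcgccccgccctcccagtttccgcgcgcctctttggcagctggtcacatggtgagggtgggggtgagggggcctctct
At least 1 CACGTG is present in 7.26% of the 35116 RefSeq windows of the same kind and at least 3, the count of the CDK4 window itself, in 0.0940%. A match is a description of letters and not of a bound site.

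In the libraries labelled TRPM2 KO, CDK4 stood at 180 and 168 normalized CPM in untreated KO11 and at 187 and 204 in untreated KO28. After doxorubicin it stood at 131 and 150 in KO11 and at 126 and 140 in KO28. Each treated library was below each untreated one. The mean fell by 26.1%, from 185 ± 15.2 to 136 ± 10.6 (SD, n = 4 libraries), with a log2 fold change of -0.43 (SE 0.084, limma adjusted p 0.000406). The call was lost without the clone KO28, where the log2 fold change was -0.31 with an adjusted p of 0.104.

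In the scrambled libraries CDK4 stood at 172 and 173 in untreated Scr13, at 161 and 199 in untreated Scr16, at 134 and 163 in treated Scr13 and at 166 and 168 normalized CPM in treated Scr16. These groups overlapped, with a log2 fold change of -0.16 (95% confidence interval -0.33 to 0.01, limma adjusted p 0.245). Between genotypes the log2 difference was 0.07 (-0.10 to 0.23) without treatment and -0.21 (-0.38 to -0.03, adjusted p 0.161) after doxorubicin. Without the doxorubicin library Scr13-1, the lowest of its group, the latter was -0.28 with an adjusted p of 0.0338. TSPAN31 and MARCHF9 overlap CDK4 on the opposite strand. TSPAN31 was higher after doxorubicin in the clones labelled TRPM2 KO, by 0.46 on the log2 scale with an adjusted p of 0.0227, which is the other direction from CDK4.

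CDK6 (chr7:92604921-92836594, minus strand) encodes the other kinase of the D cyclins. Untreated, it stood at 574 and 534 normalized CPM in KO11 and at 431 and 433 in KO28. In untreated scrambled libraries it stood at 421 and 326 in Scr13 and at 341 and 358 in Scr16. All 4 libraries labelled TRPM2 KO were above all 4 scrambled ones, KO11 by far and KO28 only just above the highest scrambled library. The means were 493 ± 72.3 and 362 ± 41.8 (SD, n = 4 libraries each), and the log2 difference by limma was 0.44 (SE 0.094, adjusted p 0.00557). The call was lost without either KO11 (log2 difference 0.26, adjusted p 0.100) or Scr16 (0.40, adjusted p 0.141), and with no filter on low values (adjusted p 0.118, over 25505 genes).

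After doxorubicin CDK6 stood at 444 and 422 in KO11, at 427 and 377 in KO28, at 337 and 308 in Scr13 and at 445 and 367 normalized CPM in Scr16. The genotypes overlapped, since the library Scr16-1 was the highest of all 8. The log2 difference was 0.21 (95% confidence interval 0.02 to 0.40, limma adjusted p 0.202), and without Scr16-1 it was 0.31 with an adjusted p of 0.0184. Leaving out both Scr16 libraries gave 0.37 (adjusted p 0.0121). The log2 fold change with the drug was 0.0043 in the scrambled clones (-0.20 to 0.21) and -0.23 in the others (-0.43 to -0.03, adjusted p 0.120), and its sign in the scrambled clones changed between settings. Per kb of exon, the ratio of CDK6 to CDK4 was 0.533 ± 0.0743 and 0.598 ± 0.0909 in untreated and treated scrambled libraries and 0.698 ± 0.147 and 0.796 ± 0.0967 in those labelled TRPM2 KO. These ratios were not tested. A short antisense transcript, CDK6-AS1, overlaps CDK6 on the opposite strand and stayed at or below 1.81 normalized CPM.

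CCNE2, a gene on chromosome 8 that encodes cyclin E2, had the largest log2 fold change of the 9 genes with the drug in the scrambled clones, whereas SKP2 had it in the clones labelled TRPM2 KO. In the scrambled clones it stood at 14.7 and 14.5 normalized CPM in untreated Scr13, at 19.7 and 17.4 in untreated Scr16, at 7.07 and 10.98 in treated Scr13 and at 8.84 and 9.02 in treated Scr16. All treated libraries were below all untreated ones. The mean fell by 45.9%, from 16.6 ± 2.46 to 8.98 ± 1.60 (SD, n = 4 libraries), and the log2 fold change by limma was -0.82 (SE 0.18, adjusted p 0.00194). Without the clone Scr16 it was -0.67 with an adjusted p of 0.137. Between 93 and 374 reads stood behind each of these values.

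In the clones labelled TRPM2 KO, CCNE2 stood at 13.5 and 15.5 in untreated KO11, at 13.7 and 10.2 in untreated KO28, at 8.19 and 10.3 in treated KO11 and at 9.35 and 11.7 normalized CPM in treated KO28. The groups overlapped through the untreated library KO28-2, the lowest of its group, and the log2 fold change of -0.39 (95% confidence interval -0.75 to -0.03) had a limma adjusted p of 0.142. Between genotypes the log2 difference was -0.31 (-0.65 to 0.03) without treatment and 0.13 (-0.28 to 0.53) after doxorubicin. INTS8 and NDUFAF6 overlap CCNE2 on the opposite strand, with means in untreated scrambled libraries of 39.9 and 16.4 normalized CPM, and their log2 fold changes with the drug were -0.10 and 0.15 in the scrambled clones, neither past the test.

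CCNE1 (chr19:29811898-29824308, plus strand) encodes cyclin E1. It ranged from 14.1 to 19.6 normalized CPM in untreated and from 10.2 to 17.3 in treated scrambled libraries, and from 15.5 to 19.7 and from 11.7 to 16.4 in those labelled TRPM2 KO. The treated and untreated libraries overlapped in both genotypes. The log2 fold change was -0.39 (SE 0.17, limma adjusted p 0.142) and -0.26 (SE 0.17, adjusted p 0.330). Without the treated library Scr13-1, the highest of its group, the former was -0.53 with an adjusted p of 0.0472. The difference between genotypes was 0.03 untreated and 0.16 after doxorubicin on the log2 scale, and its sign changed when a clone was left out. CCNE1 made up 63.6% ± 3.91 of the sum of both E cyclins per kb in untreated scrambled libraries and 70.5% ± 6.96 after doxorubicin, against 69.2% ± 3.13 and 71.2% ± 5.81 in the other genotype. The level of CCND1 relative to both E cyclins together, per kb, went from 47.0 ± 5.83 to 66.7 ± 10.2 in the scrambled and from 48.6 ± 5.96 to 59.9 ± 4.53 in the other libraries.

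CDK2 (chr12:55966769-55972784, plus strand) encodes the kinase of the E cyclins. In the libraries labelled TRPM2 KO it stood at 77.6 and 72.4 normalized CPM in untreated KO11, at 78.1 and 72.3 in untreated KO28, at 62.2 and 66.4 in treated KO11 and at 59.9 and 60.2 in treated KO28. Treated and untreated libraries did not overlap. The mean fell by 17.2%, from 75.1 ± 3.19 to 62.2 ± 3.01 (SD, n = 4 libraries), with a log2 fold change of -0.27 (SE 0.082, limma adjusted p 0.0217). The call was lost without either clone, with adjusted p values of 0.129 without KO11 and 0.282 without KO28. It was also lost without untreated KO11-1, untreated KO28-1, treated KO28-1 or treated KO28-2, with adjusted p values between 0.0561 and 0.0624, and with the mean of each clone in place of its libraries (adjusted p 0.0632).

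In the scrambled clones CDK2 ranged from 71.7 to 84.9 untreated and from 68.7 to 79.8 normalized CPM after doxorubicin. The log2 fold change there was -0.07 (95% confidence interval -0.24 to 0.10). Between genotypes after doxorubicin every library labelled TRPM2 KO was below every scrambled one, with a log2 difference of -0.22 (SE 0.087), and the limma adjusted p was 0.138. Untreated, the difference was -0.02 (-0.20 to 0.15). PMEL overlaps CDK2 on the opposite strand, at 12.1 normalized CPM or less.

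SKP2 (chr5:36151989-36184319, plus strand) was the only gene of the set called after doxorubicin in both genotypes. In the clones labelled TRPM2 KO it stood at 85.5 and 93.3 normalized CPM in untreated KO11, at 73.4 and 90.4 in untreated KO28, at 55.7 and 56.5 in treated KO11 and at 54.9 and 64.8 in treated KO28. All treated libraries were below all untreated ones. The mean fell by 32.3%, from 85.6 ± 8.81 to 58.0 ± 4.59 (SD, n = 4 libraries), with a log2 fold change of -0.55 (SE 0.090, limma adjusted p 5.1e-05). This call held in each of 14 other settings, with adjusted p values up to 0.0496, and in each of 8 fits without 1 library.

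In the scrambled clones SKP2 stood at 81.0 and 85.6 in untreated Scr13, at 88.7 and 88.0 in untreated Scr16, at 63.4 and 65.7 in treated Scr13 and at 79.7 and 73.0 normalized CPM in treated Scr16. Treated and untreated libraries did not overlap there either. The mean fell by 17.9%, from 85.8 ± 3.48 to 70.5 ± 7.39, with a log2 fold change of -0.29 (SE 0.090, limma adjusted p 0.0362). That call was lost without untreated Scr13-2, Scr16-1 or Scr16-2 and without treated Scr13-1 or Scr13-2, with adjusted p values between 0.0697 and 0.1303, and without either clone. It was also lost with clone means (adjusted p 0.0871) and with no filter on low values (adjusted p 0.0666). Between genotypes SKP2 differed by -0.01 (95% confidence interval -0.19 to 0.17) untreated and by -0.27 (-0.47 to -0.07, adjusted p 0.0858) after doxorubicin on the log2 scale. Without the clone Scr13 the latter was -0.39 with an adjusted p of 0.0286.

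CKS1B (chr1:154974653-154979249, plus strand), the partner of SKP2, has a start with 5 CCAAT letters, the sequence to which NF-Y binds, and 1 TTTGAA, the letters of the cell cycle homology region through which DREAM and FOXM1 complexes act. The stretch chr1:154974431-154974680 of GRCh38.p14, plus strand, is shown 5′ to 3′ up to the RefSeq start, with the CCAAT and TTTGAA matches in capitals.
CKS1B: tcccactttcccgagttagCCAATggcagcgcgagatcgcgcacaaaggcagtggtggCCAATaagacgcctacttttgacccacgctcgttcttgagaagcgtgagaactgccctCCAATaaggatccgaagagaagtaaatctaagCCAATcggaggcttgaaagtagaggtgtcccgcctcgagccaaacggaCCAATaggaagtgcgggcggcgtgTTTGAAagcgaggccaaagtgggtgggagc
At least 5 CCAAT matches on either strand are found in 0.359% of RefSeq windows, and at least 5 together with a TTTGAA in 0.0228%, while CCAAT alone is in 34.6% and TTTGAA alone in 15.2%. The cutoff of 5 and the pairing are those of the CKS1B window itself, so these shares are a description and not a test. The windows of 300 bases, 250 before and 50 after the start, were searched on both strands for 12 motifs. The search covered 9 windows of 6 of the 9 genes. No window of CCND1, CCNE2 or CDK2 was searched, so the counts that follow say nothing about these genes. The E2F letters TTTGGCGC, TTTCGCGC, TTTGGCGG, TTTCCCGC, TTCCCGCC and GCGGGAA, of which the last is part of the reverse strand of the pair before it, were in 0 of the 9 windows and in 8.15% of all windows. TTCGAA (1.45% of all windows) and TGACGTCA (1.85%) were in none of them either, and GGGCGG, present in 45.0% of all windows, was in 7. CACGTG was also in 1 CDK6 window, and CCAAT in 2 of CCND3.

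CKS1B was lower in 3 of 4 treated libraries labelled TRPM2 KO than in any treated scrambled library. Untreated, it stood at 69.8 and 81.6 normalized CPM in KO11, at 76.1 and 91.0 in KO28, at 84.3 and 94.2 in Scr13 and at 93.9 and 96.6 in Scr16. After doxorubicin it stood at 57.6 and 74.9 in KO11, at 63.9 and 68.9 in KO28, at 83.1 and 69.7 in Scr13 and at 98.2 and 84.5 in Scr16. The treated genotypes overlapped through KO11-2 and Scr13-2, with means of 66.3 ± 7.37 and 83.9 ± 11.6 (SD, n = 4 libraries). The log2 difference was -0.33 (SE 0.10) with a limma adjusted p of 0.0521, just outside the threshold. Without treated KO11-2 or Scr13-2 it was called, with adjusted p values of 0.0344 and 0.0142. It was also called by limma with the clone as a random block (adjusted p 0.0336) and with all 16 libraries in 1 fit (0.0310). The same held for limma with library size alone (0.0425) and without the clone Scr13 (0.0145), and for DESeq2 (adjusted p 0.0376). In 10 of 15 such settings it stayed uncalled. Untreated the difference was -0.21 (SE 0.088, adjusted p 0.235).

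With the drug, the log2 fold change of CKS1B was -0.14 (95% confidence interval -0.35 to 0.06) in the scrambled clones and -0.26 (-0.46 to -0.06, limma adjusted p 0.0743) in the others. Without untreated KO11-1 or treated KO11-2 the latter was called, with adjusted p values of 0.0387 and 0.0380. CKS1B has 6 named pseudogenes, CCND3 has 2 and CDK4 has 1, and reads shared with such copies make their counts less certain.

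Across genotypes the drug response was compared by the interaction of genotype and doxorubicin over the 16 libraries. Of the 9 genes, 0 were called by limma, by edgeR's quasi-likelihood test or by DESeq2, and of all 15325 genes limma called 3, or 0.0196%. At an unadjusted p under 0.05 there were 2, CDK4 and SKP2, beside 7.49% of all genes. For CDK4 the fall was larger in the clones labelled TRPM2 KO by 0.28 on the log2 scale, an estimate of -0.28 with an SE of 0.12 and an adjusted p of 0.609. For SKP2 the estimate was -0.27 (SE 0.13, adjusted p 0.657) and for CCNE2, which pointed the other way, 0.44 (SE 0.25, adjusted p 0.735). A difference between the genotypes in the response to the drug was therefore not shown for any of the 9 genes. The count of 0 between genotypes after doxorubicin stands beside 6 genes at an unadjusted p under 0.05, CCND3, CDK2, CDK4, CDK6, CKS1B and SKP2, where 20.3% of all genes were that low, and beside 0 by edgeR's quasi-likelihood test and 1, CKS1B, by DESeq2. Groups of libraries did not overlap for CDK6 without treatment (9.29% of all genes), for CCND3 and CDK2 between genotypes after doxorubicin (13.2%), for CCNE2 and SKP2 with the drug in the scrambled clones (16.4%) and for CDK2, CDK4 and SKP2 in the others (19.1%).

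Other genes of the pathway were counted in lists. A gene named for 1 genotype alone was not shown to respond differently in the other, since limma's interaction called 0 genes of each list. Of 15 genes for entry into S phase, most of them licensing factors and nucleotide synthesis enzymes that E2F controls, 11 fell with doxorubicin in the scrambled clones and 12 in the clones labelled TRPM2 KO, and none rose. Their median log2 fold change was -0.47 and -0.57. MCM6, a subunit of the replicative helicase, went from 226 ± 12.3 to 138 ± 7.41 normalized CPM in the scrambled and from 198 ± 9.42 to 96.9 ± 8.94 in the other clones (SD, n = 4 libraries). In the scrambled clones MCM5 and RRM2 fell by 0.77 and 0.63 on the log2 scale. In the KO11 and KO28 libraries MCM5, MCM2 and MCM4 fell by 0.93, 0.65 and 0.61 log2 units. Between genotypes MCM2 was lower in the libraries labelled TRPM2 KO already without treatment, at 179 ± 12.6 against 302 ± 19.3 normalized CPM, and it was the only one of the 15 called there. After doxorubicin MCM2, MCM6, MCM3 and CDT1 were lower in them, 4 of 15, with log2 differences of -0.93, -0.51, -0.38 and -0.43, and none was higher.

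Of the log2 fold changes with the drug that are given here, the largest were those of a CDK inhibitor. CDKN1A, which encodes p21, rose from 57.0 ± 15.2 to 337 ± 25.1 normalized CPM in the scrambled clones and from 136 ± 16.5 to 736 ± 45.3 in the clones labelled TRPM2 KO (SD, n = 4 libraries), with log2 fold changes of 2.58 and 2.43. CDKN1B, which encodes p27, the substrate of the ligase with SKP2, rose by 0.27 and 0.51 on the log2 scale. Of 5 inhibitors tested, 2 rose and 0 fell in the scrambled clones, while 2 rose and 1, CDKN2C, fell by 0.34 log2 units in the others. Between genotypes CDKN1A was higher in the libraries labelled TRPM2 KO by 1.27 log2 units untreated and 1.13 after doxorubicin. CDKN1B was lower untreated, with a log2 difference of -0.39, and CDKN2C after the drug, with one of -0.42.

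Of 13 genes of RB and E2F, 1 rose and 3 fell in the scrambled clones and 1 rose and 5 fell in the others. E2F7, a repressor of the family, rose by 0.39 and 0.64 log2 units. E2F1 and E2F2, activators, fell by 0.52 and 0.47 in the scrambled clones and by 0.61 and 0.72 log2 units in the others. TFDP1, their dimer partner, fell by 0.23 log2 units in the former, and in the latter its log2 fold change was -0.17 (limma adjusted p 0.121). E2F3 fell by 0.24 log2 units in the latter, and in the former its log2 fold change was -0.11 (adjusted p 0.368). Between genotypes 0 of 13 were called untreated and 1, E2F2, after doxorubicin, with a log2 difference of -0.41. Of 5 genes that raise or restrain the activation of CDKs, CDC25A fell by 0.32 log2 units in the scrambled clones. In the others CDC25A and WEE1 fell by 0.50 and 0.35 log2 units. Between treated genotypes WEE1 was also lower under the TRPM2 KO label, with a log2 difference of -0.36. Untreated, 0 of these 5 were called between genotypes.

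Cyclins and kinases of other phases or functions, with the CKS1B paralog CKS2, were tested as 10 genes. In the scrambled clones 1 of them fell with the drug, CDK5, a kinase known mainly from neurons and not as a driver of the cell cycle, by 0.33 log2 units. Under the TRPM2 KO label 5 fell, among them CCNB1, CCNB2, CCNA2 and CDK5 by 0.77, 0.49, 0.34 and 0.42 log2 units. After doxorubicin CCNB1, the cyclin that drives entry into mitosis, stood at 78.8 ± 13.7 normalized CPM in those clones and at 125 ± 25.5 in the scrambled ones. CCNB2, CCNA2 and CDK1 were also lower there, which made 4 of 10, and untreated 0 of 10 were called. Of the 9 genes of G1, 0 were called in that comparison, and the difference between the lists was not tested. Of 11 genes for the turnover of G1 cyclins, SKP1 was called in the scrambled clones, with a log2 fold change of -0.24. In the others it was -0.21 (limma adjusted p 0.0645). FBXW7, the receptor that marks cyclin E for degradation, was called in the clones labelled TRPM2 KO, with a log2 fold change of 0.40. In the scrambled clones it was 0.29 (adjusted p 0.0658). None of the 11 was called between genotypes.

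Of 11 mitogenic inputs, MYC, a driver of proliferation, fell by 0.80 log2 units in the scrambled clones, from 57.1 ± 11.8 to 32.8 ± 8.99 normalized CPM, and by 1.09 in the others, from 61.2 ± 4.53 to 28.6 ± 5.31 (SD, n = 4 libraries). EGR1, an early growth response gene, rose by 0.96 and 1.10 log2 units. CTNNB1 fell by 0.29 in the scrambled clones, and in the others MYCN fell by 0.94 and FOS rose by 1.04 log2 units. In all, 1 rose and 2 fell in the scrambled clones and 2 rose and 3 fell in the others. Between genotypes EGR1 was higher and FOXO3 lower in the libraries labelled TRPM2 KO, with log2 differences of 0.78 and -0.29 untreated and 0.92 and -0.45 treated. MYCN and ETS1 were lower there after doxorubicin, with log2 differences of -0.78 and -0.34.

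**Figure D4:**
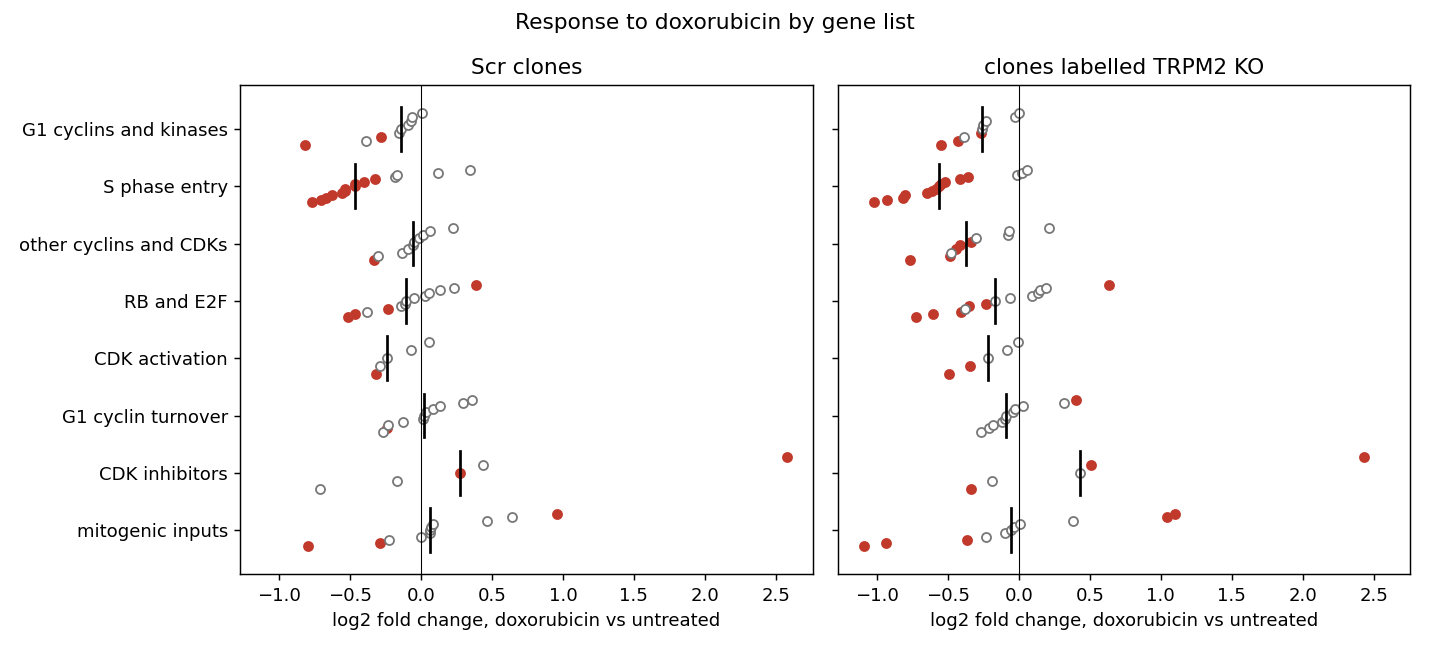
Log2 fold change of each tested gene after doxorubicin (x axis, log2(normalized CPM + 1) scale) by gene list, in the Scr clones and in the clones labelled TRPM2 KO. Filled red points passed an adjusted p of 0.05 in limma and black bars are medians. The medians of the G1 set are -0.14 and -0.26 and those of the S phase genes -0.47 and -0.57.

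Markers of a mesenchymal state, which neuroblastoma cells can take up and fibroblasts share, differed between the genotypes. Of 11 tested without treatment, 6 were higher and 1 was lower in the libraries labelled TRPM2 KO, with a median log2 difference of 1.10 beside -0.01 over all genes. After doxorubicin 7 of 10 were higher and 1 was lower, with a median of 1.63. LUM, FN1 and YAP1 were higher by 2.45, 1.55 and 1.91 log2 units untreated and by 3.24, 2.14 and 2.18 after the drug, while TWIST1 was lower, with log2 differences of -0.53 and -0.64. LUM and YAP1 were low in the scrambled libraries, with means of 1.32 and 1.77 normalized CPM untreated and 0.420 and 1.73 treated. The summed level of the 11 markers in the tables was 1071 and 947 normalized CPM in untreated KO11, 1272 and 1170 in untreated KO28, 999 and 532 in untreated Scr13 and 655 and 693 in untreated Scr16. After doxorubicin it was 1217 and 974 in KO11, 1313 and 1113 in KO28, 619 and 537 in Scr13 and 807 and 702 in Scr16. VIM was the most abundant in all libraries labelled TRPM2 KO and TWIST1 in 7 of 8 scrambled libraries, no marker was at 0 in untreated cells, and 1 was at 0 in each of 2 treated scrambled libraries. CDK6 followed the order of the sums among the 4 untreated and among the 4 treated scrambled libraries, with Scr13-1 highest in both untreated and Scr16-1 highest in both after doxorubicin. It did not in the libraries labelled TRPM2 KO, where without treatment those of KO11 had the higher CDK6 and those of KO28 the higher sums. The part of these markers in the CDK6 difference was not tested. With the drug, 1 of 11 fell in the scrambled clones, namely THY1, which fell by 0.37 log2 units, and in the others CD44 rose by 1.66 and COL1A2 fell by 0.98 log2 units. COL1A2 was near the floor there, with means of 2.22 normalized CPM untreated and 0.658 treated and a lowest treated value of 0.126. Of 11 noradrenergic markers tested, 2 were higher and 1 was lower in the libraries labelled TRPM2 KO, both without treatment and after doxorubicin. GATA3 was among those higher untreated, and ELAVL4 among those higher after the drug. With doxorubicin 2 of them rose and 1 fell in the scrambled clones, and 3 rose and 3 fell in the others, with log2 fold changes of 0.31 and 0.21 for HAND2 and -0.27 and -0.38 for ISL1.

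The genes most like each called member over the 16 libraries were taken by Pearson's r on log2(normalized CPM + 1), as a description in which the points share clones and treatments. For CDK6 they were KIT, RERG and NEGR1, with r of 0.94, 0.88 and 0.88. For SKP2 they were SCD, ATP5F1B and BIRC5, with r of 0.93, 0.93 and 0.92. For CDK4 they were HIRIP3, HNRNPL and TRMT112, with r of 0.94, 0.92 and 0.92, and for CDK2 RMI1, BUB1B and CAT, with r of 0.90, 0.90 and 0.87. For CCNE2 they were YWHAB, SMAD9 and ZBTB44, with r of 0.90, 0.89 and 0.88. No gene was among the 3 nearest of more than 1 of these 5 members.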

How the data were processed

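Poly(A) RNA of 4 SH-SY5Y clones was sequenced by the authors from a directional library kit. According to the submitters' processing notes bcl2fastq, HISAT2 2.1.0, HTSeq, edgeR and GRCh38 were used. The annotation and the use of strand in counting are not given in the sources used here, so reads of genes that overlap on opposite strands may not be told apart. What the authors deposited is a normalized signal, CPM of an effective library size, in 1 table for untreated and 1 for treated cells. The geometric mean of the normalization factors was 1.01 in the former and 0.992 in the latter, and not 1 in each, so both were read as 1 normalization and used as deposited. Every value was a whole multiple of the step of its column (100%, tolerance 0.01 reads), and the reads recovered in this way were tested in 2 alternatives, with edgeR 4.0.16 and DESeq2 1.42.0. The tables also hold the log2 fold changes, p-values, q-values and a ranking of the authors' own comparisons, which were not used.

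The test was that of limma 3.58.1 (R 4.3.3), moderated with a trend, on log2(normalized CPM + 1). A gene entered a fit if it reached 1 normalized CPM in 4 or more of its libraries. Genotypes were compared in the 8 libraries of a treatment, and the drug and the interaction in 1 fit of 4 group means over the 16 libraries, with Benjamini-Hochberg adjustment over all genes tested at a threshold of 0.05 and no term for the clone. The same clones were treated and untreated, which pairs them by design, so the clone was used as a fixed block in an alternative. The replicate numbers were checked too. Deviations of libraries of the same clone and number, treated against untreated, had a median r of 0.058, from -0.037 to 0.222, and the numbers are not taken as pairs.

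The members and lists were chosen with earlier results of these data known. Named are all members, TRPM2, in each list and comparison at most 4 called genes of lowest adjusted p, and the 3 genes of highest r with each called member. The genes TSPAN31, INTS8, NDUFAF6, PMEL, MARCHF9 and CDK6-AS1 were added because they overlap a member. DBH, HAND2, TH, CHGA, TWIST1 and VIM were added as markers, and CKS2 as the paralog of CKS1B. The lists were S phase entry, CDK inhibitors, RB and E2F, control of CDK activation, and other cyclins and CDKs. Further lists were G1 cyclin turnover, mitogenic inputs, and noradrenergic and mesenchymal markers. Of the listed genes, 3 (CCND2, KLF4 and PRRX1) were not analysed here. Names were found for 95.0% of identifiers, positions are those of GENCODE 29 on GRCh38, and promoter windows come from RefSeq on GRCh38.p14. Some genes counted in the lists are not reported by name here.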

Additional observations from a re-analysis of the deposited data

Results flagged for a closer look

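Of 36 groups of 4 libraries, 9 genes in 4 groups, 3 held a library far from the others, where the gap to the nearest library, as a share of the range of the group, was above the 95% critical value of Dixon's test. Chance alone would mark about 1 in 20 groups. CCND3 in treated libraries labelled TRPM2 KO was 37.7 normalized CPM in KO28-2 and 30.3, 30.4 and 31.0 in the other 3. SKP2 in the same group was 64.8 in that same library and 54.9, 55.7 and 56.5 normalized CPM in the others. CDK4 in treated scrambled libraries was 134 in Scr13-1 and 163, 166 and 168 normalized CPM in the others, and without Scr13-1 its difference between the treated genotypes had an adjusted p of 0.0338 in limma.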

How the results depend on the processing

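Over 1089 values of single genes under alternatives, 1007 kept their direction and side of the threshold. Most of these belong to results uncalled in the main fit, which keep their side by staying uncalled, so the share does not measure how stable the calls are. A call was lost in 21 values and gained in 17, and the sign changed in 44. The limits are the 2 clones per genotype, the 4 libraries per group and the low reads of CCNE1 and CCNE2. With the clone as a fixed block no member gained or lost a call in the drug comparisons or the interaction. The cause of the changes below was not tested.

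Genes called between untreated genotypes numbered 695. They numbered 368 with no filter on low values, 362 without the clone Scr13 and 364 without the clone Scr16, and 538 to 711 without 1 library. The 1 member called became 0 with no filter, without the clone KO11 and without the clone Scr16. Between treated genotypes 1266 genes were called, and 574 without the clone KO11 and 629 without the clone KO28. The 0 members called there became 1 with library size alone, with DESeq2, with the clone as a random block, without the clone Scr16 and with all 16 libraries in 1 fit, 2 without the clone Scr13, and 0 to 2 without 1 library.

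With the drug in scrambled clones 1764 genes were called, and 446 without the clone Scr13 and 780 without the clone Scr16. The 2 members called became 1 with no filter, with clone means and without the clone Scr13, 0 without the clone Scr16, and 1 to 2 without 1 library. In the clones labelled TRPM2 KO 2564 genes were called, and 867 without the clone KO11 and 1319 without the clone KO28. The 3 members called became 1 without the clone KO28, 2 without the clone KO11 and with clone means, 4 with library size alone and with the replicate block, and 2 to 4 without 1 library. In the interaction 3 genes were called, 5 with no filter, 31 with DESeq2, 22 with the replicate block, 1 with clone means, 0 without the clone KO11 or Scr16, 5 without the clone Scr13, 1 without the clone KO28 and 1 to 4 without 1 library. With the replicate block, CKS1B was called in the drug comparison of the clones labelled TRPM2 KO, with an adjusted p of 0.0334, and no other member changed its call.

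Log2 differences of uncalled members changed sign as follows. Between untreated genotypes CCNE1 was -0.082 without the clone KO11, CDK2 was 0.048 without the clone Scr13 and CDK4 was -0.016 without the clone KO28. SKP2 was 0.0039 with DESeq2 size factors, 0.0025 with DESeq2, 0.034 without the clone Scr16 and 0.057 without the clone KO28. Without 1 library the range was -0.10 to 0.018 for CCND1, -0.045 to 0.10 for CCNE1, -0.054 to 0.025 for CDK2 and -0.051 to 0.063 for SKP2. Between treated genotypes CCND1 was -0.0016 with library size alone, -0.0029 with edgeR's quasi-likelihood test, -0.00042 with DESeq2, -0.11 without the clone Scr16 and -0.010 without the clone KO28, with a range of -0.067 to 0.12 without 1 library. CCNE1 was -0.10 without the clone Scr16.

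With the drug in scrambled clones CCND1 was 0.058 and CDK6 -0.20 without the clone Scr16, CDK2 was 0.038 without the clone Scr13, and CDK6 was -0.022 with library size alone. Without 1 library the range was -0.16 to 0.022 for CCND1, -0.20 to 0.0054 for CCND3 and -0.096 to 0.080 for CDK6. In the clones labelled TRPM2 KO CCND1 was 0.0072 without the clone KO11, with a range of -0.014 to 0.011 without 1 library, and CCND3 ranged from -0.11 to 0.026. In the interaction CCND1 was -0.061 and CCNE1 -0.13 without the clone Scr16, and without 1 library the range was -0.025 to 0.16 for CCND1 and -0.037 to 0.17 for CCND3.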
